A study of Mus musculus with 20 samples.

Results

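The constant part of an antibody heavy chain decides its class: IgM, IgD, the IgG subclasses, IgE or IgA. The mouse genes Ighm, Ighd, Ighg3, Ighg1, Ighg2b, Ighg2c, Ighe and Igha encode these 8 parts, and they were taken by name from a table of RNA-seq read counts for 54532 genes in mouse spleen. All 8 were found, and 7 of the 8 passed the filter on low counts; Ighe did not. Whole spleens came from mice aged 4 weeks, bred on a gluten-free diet (9 libraries) or kept as controls (11 libraries). The library IDs come in a plain numbered form (4 gluten-free and 8 control libraries) and a form with the letter S (5 gluten-free and 3 control libraries). What the S marks, the strain and whether mice shared a litter or cage are not given in the sources used here, so p-values measure only the spread between these libraries. The labels name no genetic change or other treatment in either diet group.

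A naive B cell makes IgM and IgD together, from 1 primary transcript that is processed to end after either constant region. On activation, a DNA break and join can place another constant gene behind the same variable region, so that the cell changes to IgG, IgE or IgA. Plasma cells then secrete the antibody at very high mRNA levels, so a few plasma cells can contribute much of the class mRNA of a spleen. In the mouse, IgG subclasses differ in how well they bind Fc receptors and complement, IgA is the main antibody of gut secretions, and IgE arms mast cells and basophils.

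The 8 genes lie in 1 cluster on the minus strand of chromosome 12 (GRCm38), read in the order Ighm (chr12:113418558-113422730), Ighd (chr12:113406604-113416324), Ighg3 (chr12:113356224-113361232), Ighg1 (chr12:113325240-113330523), Ighg2b (chr12:113302965-113307933), Ighg2c (chr12:113285325-113288932), Ighe (chr12:113269260-113273248) and Igha (chr12:113254830-113260236). Each is annotated with 2 transcripts, and the counts per gene do not separate the secreted from the membrane form. The IgG genes resemble each other, and some short stretches are the same in several of them. The first 90 bases of their first coding exon, read 5′ to 3′ on the minus strand of GRCm38, are shown with capitals at the 29 positions where the 4 genes are not all alike.
Ighg3, chr12:113361143-113361232: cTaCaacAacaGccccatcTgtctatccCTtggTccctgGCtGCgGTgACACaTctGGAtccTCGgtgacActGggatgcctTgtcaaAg
Ighg1, chr12:113330434-113330523: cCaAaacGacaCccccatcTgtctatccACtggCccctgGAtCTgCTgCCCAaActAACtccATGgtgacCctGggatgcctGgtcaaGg
Ighg2b, chr12:113307844-113307933: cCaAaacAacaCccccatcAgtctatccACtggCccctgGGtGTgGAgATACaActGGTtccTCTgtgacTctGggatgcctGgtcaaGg
Ighg2c, chr12:113288843-113288932: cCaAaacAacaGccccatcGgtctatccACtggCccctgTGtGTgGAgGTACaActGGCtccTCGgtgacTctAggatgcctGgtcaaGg

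Over the whole exon of 291 bases, Ighg1, Ighg2b and Ighg2c were 87.6% to 88.3% identical, whereas Ighg3 was 78.4% to 79.0% identical to the others. The short hinge exon, which links the antigen-binding arms to the tail, differs between the 4 genes in length (48, 39, 66 and 63 bases) and sequence, and it is shown to let the genes be told apart.
Ighg3, chr12:113360529-113360576: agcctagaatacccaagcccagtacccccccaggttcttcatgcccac
Ighg1, chr12:113329844-113329882: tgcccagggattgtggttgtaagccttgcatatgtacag
Ighg2b, chr12:113307261-113307326: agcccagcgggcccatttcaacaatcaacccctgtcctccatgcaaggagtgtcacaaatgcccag
Ighg2c, chr12:113288263-113288325: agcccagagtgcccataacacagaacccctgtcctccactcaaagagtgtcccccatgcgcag

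Of the different stretches of 50 bases in the annotated transcripts, 5.49% in Ighg2c and 4.15% in Ighg2b also occurred in another class gene. The share was 1.58% in Ighg3, 0.393% in Ighg1 and 0 in Ighm, Ighd, Ighe and Igha. No stretch of 100 bases was shared. How reads that fit several genes were counted is not given in the sources used here, so the split between Ighg2b and Ighg2c is less certain than the other values. The annotated last exon of Ighg2c is 84 bases long, against 1299 to 1433 bases in the other IgG genes. Its level per length is thus not on quite the same footing as theirs. Last exons also differ between the other classes: 277 bases in Ighm, 940 in Ighd, 84 in Ighe and 1568 in Igha. The order, shares and ratios of levels per length between classes are therefore approximate.

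Libraries held 13626021 to 24268237 counted reads, of which the 8 genes took 0.137% to 0.575%. Levels are given as CPM, counts scaled to a common library size, with TMM factors, which correct for a few abundant genes taking up reads. In a principal component analysis of log2 CPM, gluten-free plain libraries lay at 50.8 to 67.0 on the first component and the other 16 libraries at -61.9 to 33.1. On the second component control 5, a plain library, lay at -20.4, within the S libraries (-34.5 to -13.2) and away from the other control plain libraries (21.0 to 37.5). Control 8 lay at 33.1 on the first component, against -32.7 to -10.3 in the other control plain libraries, and results are also given without control 5 and control 8 where they rest on them.

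IgM mRNA dominated every spleen. Per kilobase of exon, Ighm averaged 1476 ± 470 CPM, Ighd 163 ± 52.9, Igha 37.3 ± 20.2, Ighg2b 21.1 ± 15.5, Ighg2c 16.9 ± 12.7, Ighg3 5.50 ± 3.08, Ighg1 5.00 ± 4.16 and Ighe 0.132 ± 0.119 CPM (SD over 20 libraries). Ighm ranked first, Ighd second and Ighe last in each of the 20 libraries. The ranges of Ighm and Ighd did not overlap, nor did those of Ighd and Igha, nor those of Ighe and the gene next above it. From Igha down to Ighg1 the ranges of neighbours overlapped, so that the order Igha, Ighg2b, Ighg2c, Ighg3, Ighg1 is one of means. Ighg1 and Ighg3 changed places in the means of gluten-free plain and control S libraries, where Ighg1 was the higher.

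As a share of the summed level per length, Ighm made up 86.7% ± 2.55 in gluten-free plain libraries (SD, n = 4) and 86.4% ± 4.09 in control plain libraries (n = 8). In the S form its share was 80.2% ± 3.31 in gluten-free (n = 5) and 86.9% ± 2.22 in control libraries (n = 3). Ighd held 7.62% ± 0.814 of the sum in gluten-free plain and 9.53% ± 3.32 in control plain libraries, and 13.1% ± 2.91 in gluten-free S and 8.37% ± 2.94 in control S libraries. The classes made after switching (IgG, IgE and IgA together) stayed a minority, with 5.64% ± 1.73 and 4.02% ± 1.68 in gluten-free and control plain libraries. They held 6.70% ± 3.69 and 4.74% ± 0.854 in gluten-free S and control S libraries.

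**Figure D1:**
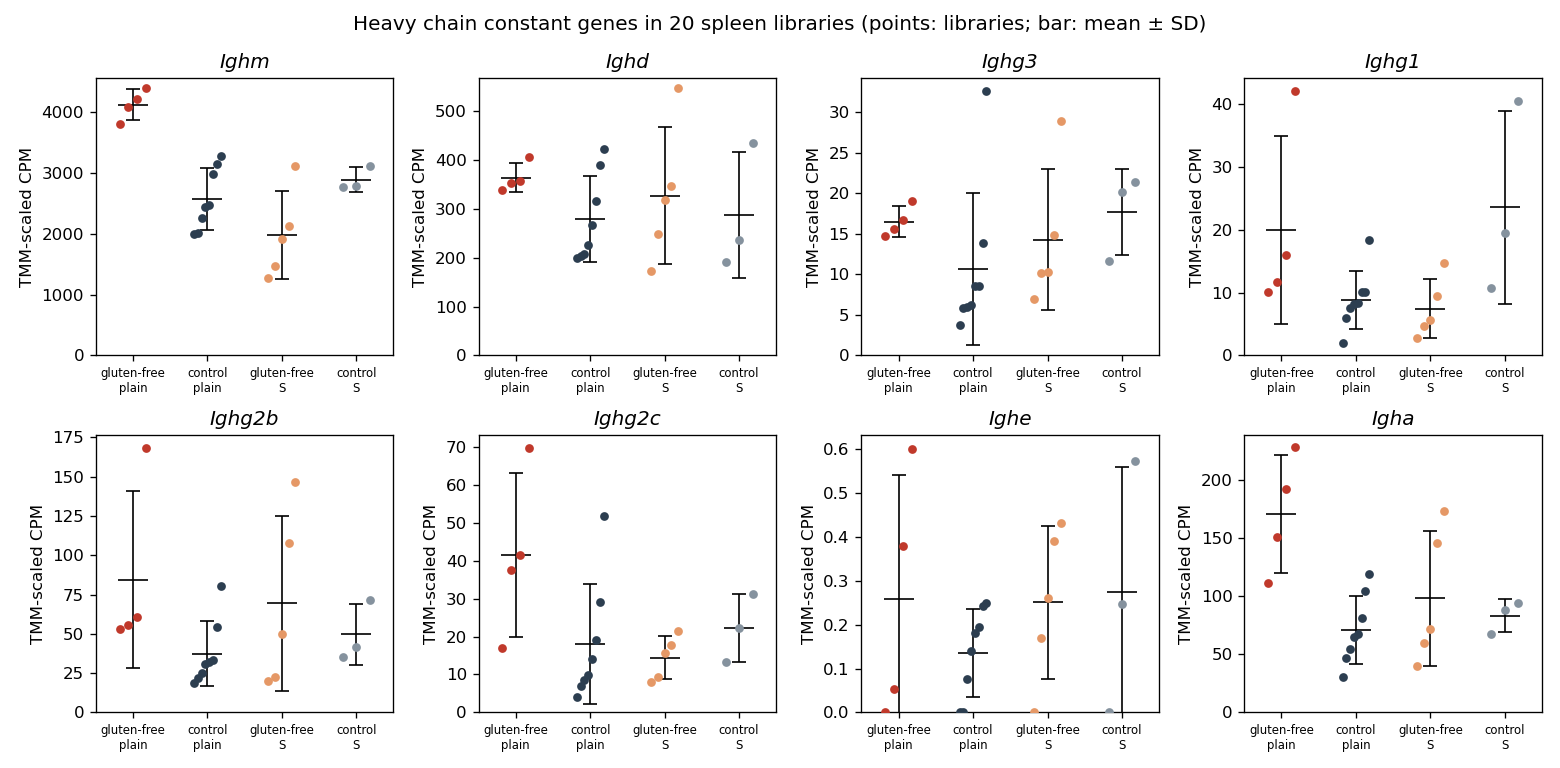
Level of each gene (TMM-scaled CPM, linear axis from 0) in each library, by diet and ID form; points are libraries, long bars the mean and whiskers 1 SD. The 4 gluten-free plain libraries lie above every other library for Ighm (3799 to 4398 CPM), while the other genes overlap between groups.

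The main question of the design is whether the gluten-free diet goes with a change in spleen mRNA. With both ID forms in 1 fit (edgeR's quasi-likelihood test, ID form as a covariate, Benjamini-Hochberg adjusted p under 0.05 over 18362 genes), 0 of the 7 tested class genes were called, beside 0% of all genes higher and 0% lower. At an unadjusted p under 0.05 there were 2 of the 7 and 4559 of all genes. DESeq2 called 1 of the 7, Igha, in a fit that called 2.25% of all genes higher and 6.44% lower. The nearest to the threshold were Igha, with a log2 fold change (gluten-free over control) of 0.84 ± 0.27 (SE, edgeR adjusted p = 0.0979), and Ighg2b with 0.90 ± 0.35 (edgeR adjusted p = 0.134). Igha passed it without control S6 (edgeR adjusted p = 0.0400) and without gluten-free S8 (edgeR adjusted p = 0.0297). These fits called 8.05% and 5.02% of all genes higher. Ighm stood at 0.18 ± 0.19, Ighd at 0.30 ± 0.20, Ighg3 at 0.24 ± 0.33, Ighg1 at 0.04 ± 0.45 and Ighg2c at 0.47 ± 0.40.

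The ID forms differed, and each was fitted by itself. Among the plain IDs, 4 of the 7 tested class genes rose in gluten-free spleens and none fell: Ighm, Ighg1, Ighg2b and Igha. In the same comparison 17.5% of all tested genes were called higher and 22.1% lower, and the median log2 fold change was 1.19 for the 7 genes and 0.03 for all genes. Without TMM factors the split over all genes was 35.5% higher and 11.1% lower. Among the S IDs, edgeR called 0 of the 7, beside 0% of all genes higher and 0% lower. DESeq2 also called 0 of the 7, beside 0% of all genes higher and 0.0218% lower. In the edgeR fit, 1 of the 7 (Ighg1) and 959 of all genes had an unadjusted p under 0.05.

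Ighm, the first class of every B cell, had 3799, 4398, 4077 and 4220 CPM in gluten-free plain libraries, against a lowest value of 1993, a median of 2463 and a highest of 3283 CPM in control plain libraries. All 4 gluten-free libraries lay above the highest control, so the groups did not overlap. How many of all genes also did not overlap was not counted. Ighm rose by a log2 fold change of 0.68 ± 0.14 (SE, edgeR adjusted p = 0.00112), or 1.60-fold. Among the S IDs it had 2136, 1909, 1478, 3108 and 1267 CPM in gluten-free libraries (S1, S3, S5, S6 and S8), against 2763, 2787 and 3122 CPM in control libraries. There 4 of the 5 gluten-free libraries lay below the lowest control, with a log2 fold change of -0.55 ± 0.26 that was not called (edgeR adjusted p = 0.908).

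Ighd, made beside IgM by naive B cells, had 407, 352, 339 and 358 CPM in gluten-free plain libraries, against a lowest of 199, a median of 246 and a highest of 422 CPM in control plain libraries. Control 5 and control 8, at 390 and 422 CPM, lay among or above the gluten-free values, while the other 6 controls lay below the lowest gluten-free one. The log2 fold change was 0.39 ± 0.19 (edgeR adjusted p = 0.112). Without those 2 libraries it was 0.62 (edgeR adjusted p = 0.000515), in a fit that called 23.6% of all genes higher and 24.7% lower. They are the 2 highest controls for Ighd, so leaving them out favours a call. That choice was made after the data were seen. Among the S IDs Ighd had 248, 347, 318, 548 and 174 CPM in gluten-free libraries, against 236, 191 and 434 CPM in control libraries, and the groups overlapped (log2 fold change 0.18 ± 0.36).

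Of the IgG genes, Ighg3 encodes a subclass known in mice for responses to carbohydrate antigens. It had 16.7, 14.7, 15.6 and 19.1 CPM in gluten-free plain libraries, against a lowest of 3.70, a median of 7.40 and a highest of 32.6 CPM in control plain libraries. The highest value belonged to control 7, the only control above any gluten-free library. The log2 fold change was 0.64 ± 0.41 (edgeR adjusted p = 0.222), and without control 7 it was 1.14 (edgeR adjusted p = 0.00219). Leaving out the highest control favours a call, and that fit called 16.7% of all genes higher and 19.9% lower. Gluten-free S libraries had 10.3, 29.0, 10.2, 14.9 and 6.97 CPM, against 11.6, 21.4 and 20.2 CPM in control S libraries, which overlapped (-0.32 ± 0.41).

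Ighg1, the subclass that interleukin 4 favours in mice, had 10.2, 42.1, 11.7 and 16.0 CPM in gluten-free plain libraries, against a lowest of 2.04, a median of 8.32 and a highest of 18.4 CPM in control plain libraries. The groups overlapped, and gluten-free 8 stood far above the rest. Ighg1 rose by a log2 fold change of 1.19 ± 0.40 (edgeR adjusted p = 0.0275), but without gluten-free 8 the value was 0.52 (edgeR adjusted p = 0.302). In the S form Ighg1 had 9.54, 14.8, 2.78, 4.65 and 5.64 CPM in gluten-free libraries, against 19.6, 40.6 and 10.7 CPM in control libraries. There 4 of 5 gluten-free libraries were below the lowest control (-1.66 ± 0.51, edgeR adjusted p = 0.908).

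Ighg2b, whose subclass transforming growth factor beta can favour in mouse B cells, had 169, 53.1, 55.4 and 61.0 CPM in gluten-free plain libraries, against a lowest of 18.9, a median of 31.6 and a highest of 80.7 CPM in control plain libraries. Gluten-free 7 stood apart upwards, and control 4 and control 7 lay above the lowest gluten-free library. Ighg2b rose by a log2 fold change of 1.19 ± 0.35 (edgeR adjusted p = 0.0140). Without gluten-free 7 the value was 0.60 (edgeR adjusted p = 0.156). Gluten-free S libraries had 108, 146, 20.2, 22.4 and 50.1 CPM, against 71.5, 41.8 and 35.5 CPM in control S libraries, a spread within gluten-free that enclosed all 3 controls (0.48 ± 0.60).

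Ighg2c, the subclass that interferon gamma favours in the mouse strains that carry this gene, had 69.7, 37.7, 41.5 and 17.0 CPM in gluten-free plain libraries, against a lowest of 4.16, a median of 12 and a highest of 51.9 CPM in control plain libraries. The groups overlapped: 3 controls lay above gluten-free 10, and control 7 lay above 3 of the 4 gluten-free libraries. Its log2 fold change was 1.22 ± 0.49, the second largest of the 7, and was not called (edgeR adjusted p = 0.0574). It was called without control 7 (1.66, edgeR adjusted p = 0.00535), without control 5 (1.37, edgeR adjusted p = 0.0433) and without gluten-free 10 (1.47, edgeR adjusted p = 0.0356). It was also called with no expression filter (edgeR adjusted p = 0.0275) and in the fit of all 4 groups (edgeR adjusted p = 0.0490). These fits called 9.64% to 18.7% of all genes higher. Ighg2c was not called with DESeq2, nor with the mean of B cell identity or of red cell precursor genes as a covariate. In the S form it had 17.9, 21.3, 9.39, 8.00 and 15.7 CPM in gluten-free libraries, against 22.3, 13.2 and 31.1 CPM in control libraries (-0.63 ± 0.34).

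Ighe, for the class bound by mast cells and basophils, was near the limit of detection. Over all 20 libraries it had 79 counts, 49 in gluten-free and 30 in control libraries, with 0 to 14 counts in any 1 library. It had 0 counts in 2 gluten-free and 3 control libraries. The limit that a count of 0 allows is 3 counts, and this limit covers counting error only. Over the depths of all 20 libraries, 3 counts would be 0.124 to 0.220 CPM of the library total. Ighe was left out of the tests by the filter. In edgeR fits with no expression filter it was called in none of the comparisons, with a log2 fold change by diet of 0.92 ± 0.84 (edgeR adjusted p = 0.479) in the plain IDs and -0.09 ± 0.94 (edgeR adjusted p = 1) in the S IDs. A diet difference was not detectable at this depth.

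Igha, for the class of gut secretions, had 192, 111, 151 and 228 CPM in gluten-free plain libraries, against a lowest of 30.7, a median of 66.1 and a highest of 119 CPM in control plain libraries. Of the 4 gluten-free libraries, 3 lay above the highest control, and control 4 alone lay above gluten-free 8. Igha rose by a log2 fold change of 1.26 ± 0.27 (SE, edgeR adjusted p = 0.00143), or 2.40-fold, the largest of the 7. In the S form it had 145, 173, 59.9, 39.9 and 71.9 CPM in gluten-free libraries, against 94.3, 88.4 and 67.3 CPM in control libraries. Gluten-free S1 and S3 lay above the controls and gluten-free S5 and S6 below them (0.23 ± 0.41).

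**Figure D2:**
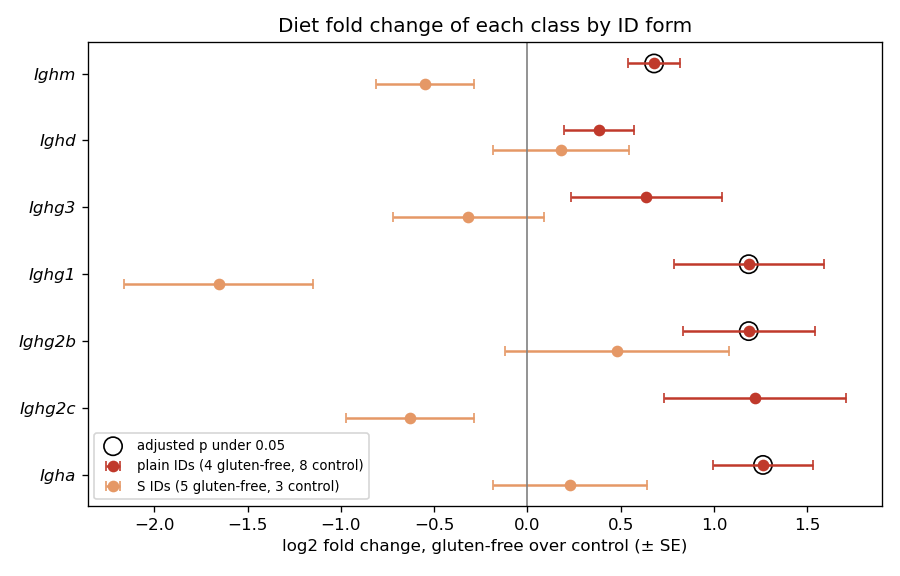
Log2 fold change of gluten-free over control (points) with its SE (bars) for the 7 tested genes, in the plain IDs (upper, red) and the S IDs (lower, orange); circled points have an edgeR adjusted p under 0.05. All 7 estimates are above 0 in the plain IDs, from 0.39 for Ighd to 1.26 for Igha, and in the S IDs they run from -1.66 for Ighg1 to 0.48 for Ighg2b.

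The difference between the ID forms was tested itself, as the diet log2 fold change in S IDs minus that in plain IDs. It was called for 2 of the 7 genes, both negative, beside 9.37% of all genes called lower and 15.4% called higher (14.4% lower and 7.05% higher without TMM factors). For Ighm it was -1.23 ± 0.29 (SE, edgeR adjusted p = 0.00593) and for Ighg1 -2.83 ± 0.71 (edgeR adjusted p = 0.00806). Leaving out control 5 and control 8 gave -1.24 for Ighm and -2.79 for Ighg1, both called. The other estimates were also negative and not called: Ighg2c -1.83 ± 0.75, Igha -1.03 ± 0.52, Ighg3 -0.94 ± 0.66, Ighg2b -0.70 ± 0.73 and Ighd -0.20 ± 0.40.

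Within gluten-free spleens, 3 of the 7 genes fell in S against plain libraries, beside 15.4% of all genes called lower and 16.6% called higher. These were Ighm (-1.11 ± 0.22, edgeR adjusted p = 0.00450), Ighg2c (-1.57 ± 0.36, edgeR adjusted p = 0.00792) and Ighg1 (-1.47 ± 0.49, edgeR adjusted p = 0.0370). The call for Ighg1 was lost without any 1 of gluten-free 8, 10, S5, S6 or S8, with values of -1.57 to -0.80. Within control spleens, edgeR called 0 of the 7 in S against plain libraries, beside 1.64% of all genes called higher and 0.517% lower. DESeq2 also called 0 of the 7, beside 3.07% of all genes higher and 1.89% lower. At an unadjusted p under 0.05 there was 1 of the 7 and 2936 of all genes. That gene was Ighg1 (1.43 ± 0.42, edgeR adjusted p = 0.0903), which was called without control S6 (1.77, edgeR adjusted p = 0.0241).

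Ratios between classes within a library do not depend on how libraries are scaled. Per length, Ighd stood at 8.81% ± 1.23 of Ighm in gluten-free plain libraries and 11.2% ± 4.48 in control plain libraries. In the S form it was 16.4% ± 3.88 in gluten-free and 9.69% ± 3.66 in control libraries. Igha stood at 2.95% ± 0.934 of Ighm in gluten-free plain and 2.10% ± 1.08 in control plain libraries, and at 3.80% ± 2.07 in gluten-free S and 2.06% ± 0.472 in control S libraries. None of 6 exact two-sided permutation tests of these ratios by diet passed adjustment. For Igha to Ighm the log2 difference was 0.64 with libraries permuted within ID forms (exact p = 0.108, adjusted over the 6 tests 0.325), 0.62 in plain IDs (exact p = 0.192) and 0.65 in S IDs (exact p = 0.357). For Ighd to Ighm it was 0.17 within ID forms (exact p = 0.481), -0.26 in plain IDs (exact p = 0.396) and 0.79 in S IDs (exact p = 0.0714, adjusted 0.325). The smallest p these designs allow is 3.61e-05 within ID forms, 0.00202 in plain IDs and 0.0179 in S IDs. Of the single libraries, gluten-free S6 had the second lowest Igha share (0.908%) and gluten-free S3 the highest (6.42%).

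**Figure D3:**
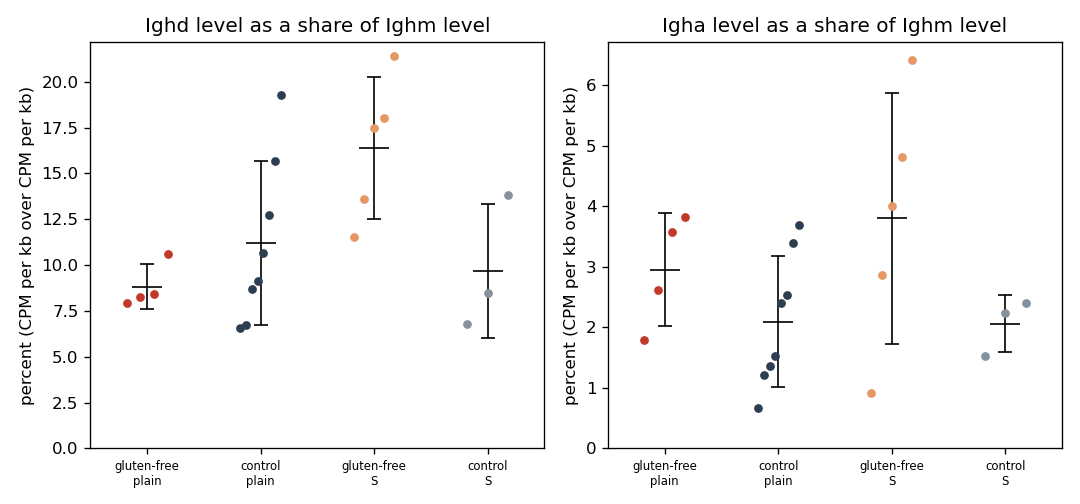
Level of Ighd (left) and of Igha (right) per kilobase as a percent of that of Ighm in the same library, by diet and ID form; points are libraries, long bars the mean and whiskers 1 SD. Gluten-free S libraries had the highest mean Ighd share (16.4%), and the Igha share ranged from 0.661% to 6.42% over the 20 libraries with overlapping groups.

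Several partners of the heavy chain rose in gluten-free plain spleens, where 17.5% of all tested genes were called higher and 22.1% lower. All 4 light chain constant genes rose (median log2 fold change 0.58, all genes 0.03), led by Igkc, the kappa chain, with 2390 ± 175 CPM in gluten-free and 1491 ± 282 CPM in control plain libraries. Of 16 plasma cell and antibody secretion genes, 12 rose and 1 fell (median 0.52). Jchain, which joins IgM and IgA into polymers, rose by 0.75 ± 0.17 (edgeR adjusted p = 0.00262), and Edem1 and Txndc5, which act in protein folding and disposal in the endoplasmic reticulum, rose by 0.69 ± 0.10 and 0.43 ± 0.09. The gene that fell was Ell2, an elongation factor that favours the secreted form of the heavy chain mRNA (-0.91 ± 0.12, edgeR adjusted p = 3.89e-05). Of 15 B cell identity genes only Cd79b, a signalling chain of the B cell receptor, was called (0.36 ± 0.13, edgeR adjusted p = 0.0346), although all 15 estimates were above 0 (median 0.43).

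Over all tested genes, 22.1% were called lower and 17.5% higher in gluten-free plain spleens. Among 26 genes of the switching machinery, 15 fell and 1 rose there (median -0.51). Those that fell include Msh6, a mismatch repair factor (-0.70 ± 0.09), and H2afx, a histone that marks DNA breaks (-0.57 ± 0.21); most of this list serves DNA repair in any dividing cell. Of 22 tested genes for signals that direct switching, 14 rose and none fell (median 0.42), among them Tgfb1, the cytokine that favours IgA (0.52 ± 0.10, edgeR adjusted p = 0.000895), and Stat6, which carries the interleukin 4 signal (0.31 ± 0.10, edgeR adjusted p = 0.0197). Of 7 genes that process the IgM and IgD transcript, 4 fell and none rose (median -0.25), with the RNA cleavage factor Nudt21 at -0.63 ± 0.10. Of 11 tested immunoglobulin receptors 2 rose, a share near the 17.5% of all genes: Fcmr, the IgM receptor (0.47 ± 0.15), and Ms4a2, a chain of the IgE receptor (0.89 ± 0.28). In the S IDs and in the fit of all libraries, edgeR called 0 members of each of these lists. The difference between ID forms was called lower for 2 of 4 light chain genes, 6 of 16 plasma cell genes and 1 of 22 signal genes, beside 9.37% of all genes. It was called higher for 1 of 16 plasma cell genes, 13 of 26 machinery genes and 3 of 7 transcript processing genes, beside 15.4% of all genes.

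Markers of other cells differed between the same groups, beside 22.1% of all tested genes called lower and 17.5% higher in the plain IDs. In the plain IDs all 15 red cell precursor genes fell, with summed levels of 4564 to 8047 CPM in gluten-free and 10251 to 18976 CPM in control libraries, which did not overlap. All 11 neutrophil genes rose (3102 to 8063 CPM in gluten-free, 753 to 2402 CPM in control libraries). So did all 13 T cell genes (905 to 1071 CPM in gluten-free, 492 to 817 CPM in control libraries) and all 7 tested B cell precursor genes. The 8 listed B cell precursor genes summed to 83.5 to 99.9 CPM in gluten-free and 48.2 to 64.5 CPM in control libraries. Much of that sum was Lef1, with means of 50.1 CPM in gluten-free and 33.9 CPM in control plain libraries. Which cells the Lef1 mRNA came from was not tested, so the sum need not reflect B cell precursors. The 10 mesothelium and fat genes overlapped (101 to 258 CPM in gluten-free, 69.1 to 214 CPM in control libraries), with 2 higher. In the S IDs edgeR called 0 genes of these 5 lists. The summed mesothelium and fat level there did not overlap: 47.2 to 175 CPM in gluten-free and 195 to 308 CPM in control libraries. All 10 estimates were below 0 (median -1.28). For these sums and those of the plain IDs, how many of all genes lay apart in this way was not counted. The difference between ID forms, called for Ighm and Ighg1, was also called lower for 11 of 11 neutrophil genes. It was called lower for 3 of 10 mesothelium and fat and 1 of 13 T cell genes, beside 9.37% of all genes. It was called higher for 14 of 15 red cell precursor genes, beside 15.4% of all genes. No gene of these lists was at 0 counts over the series. With the mean log2 CPM of the red cell precursor genes as a covariate, 0 of the 7 class genes were called in the plain IDs; since that mean does not overlap between the diets there (7.58 to 8.30 in gluten-free, 8.71 to 9.66 in control libraries), the diet and the red cell precursor level cannot be told apart. With the B cell identity mean as a covariate, Ighm (0.68), Ighg1 (1.76) and Igha (1.44) were still called and Ighg2b was not (1.18, edgeR adjusted p = 0.0821); that fit called 11.7% of all genes higher and 17.2% lower. In whole spleen, fewer cells of a type and less RNA per cell cannot be told apart, and the part of cell composition in the class levels was otherwise not tested.

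Within groups, the classes of naive B cells had their highest correlations with different lists. After the mean of each diet and ID form group was subtracted, Ighd followed the mean of the B cell identity genes over the 20 libraries (Pearson r = 0.95, Spearman rho = 0.96, r = 0.94 without the 2 libraries farthest from the median), and Ighm had r = 0.39 and rho = 0.15 with it. Ighm followed the plasma cell and secretion genes (r = 0.85, rho = 0.86, r = 0.83 without the 2 farthest), and Ighd had r = 0.56 and rho = 0.40 with them. Igha had r = -0.39 with the B cell genes and -0.14 with the plasma cell genes. Ighd also had r = 0.89 with the T cell markers and -0.86 with the red cell precursor markers. These are descriptions with no test, over points that share library depth and cell makeup with the lists they are set against. Among the switched classes, the closest were Ighg2b with Ighg2c (r = 0.67), the genes with the largest shares of stretches found in another class, then Ighg2b with Igha (r = 0.65) and Ighg3 with Ighg2c (r = 0.65).

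**Figure D4:**
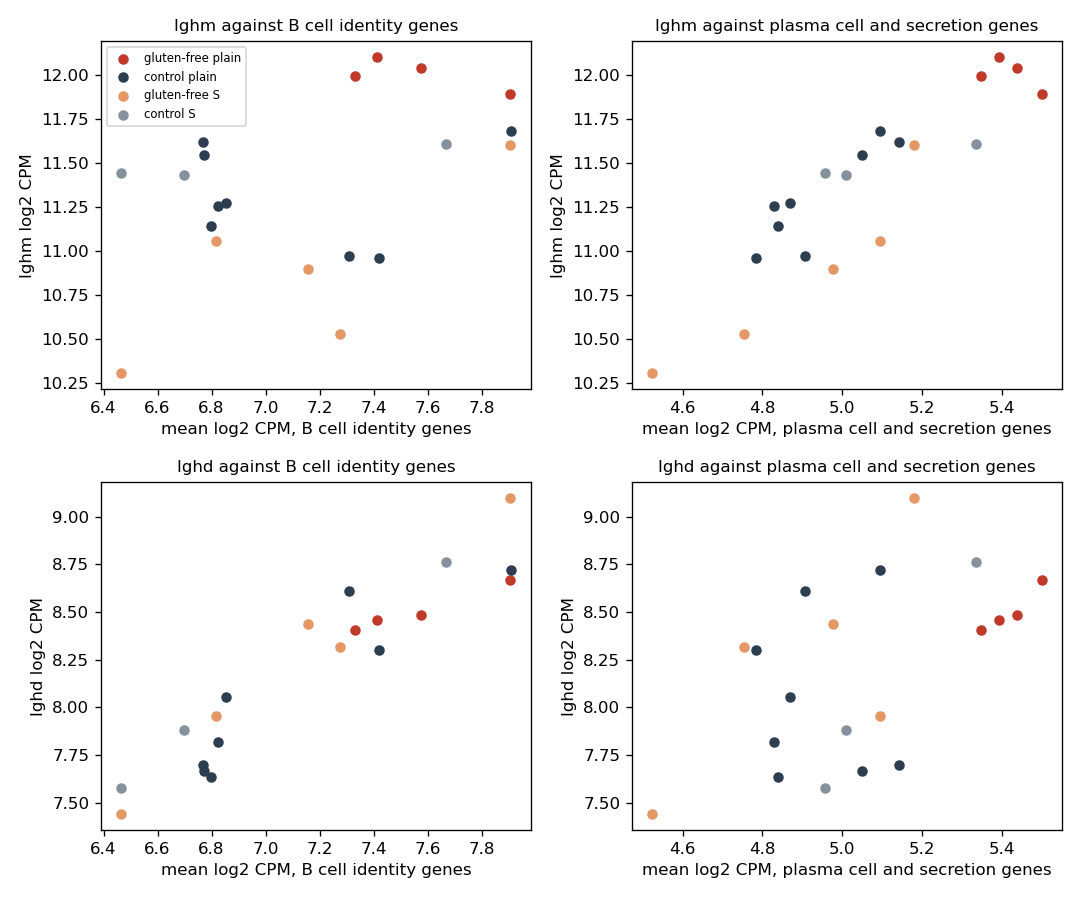
Log2 CPM of Ighm (top) and Ighd (bottom) in each library against the mean log2 CPM of 15 B cell identity genes (left) and of 16 plasma cell and secretion genes (right), coloured by diet and ID form. Ighd lies close to a line with the B cell genes (r = 0.95 within groups) and Ighm with the plasma cell genes (r = 0.85 within groups).

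The genes most like each class were sought by the same within-group Pearson correlation over 20 libraries, variable region genes aside. They are the highest values of a search through 18362 tested genes, so some can be high by chance. No test was run on them. For Ighm they were Igkc (0.93), Spi1 (0.88), a transcription factor of B and myeloid cells, and Myo1f (0.88), a myosin of immune cells. For Ighd they were the sugar transporter Slc50a1, the B cell surface protein Cd37 and Tcf25 (0.98 each). Ighg1 was most like Serpinb10 (0.86), Prkaa2 (0.84) and Tnfrsf21 (0.84), and Ighg3 like 4930451G09Rik (0.75), Gm28809 (0.74) and Ubd (0.74). Ighg2b was most like AC135964.2 (0.83), Tada3 (0.80) and Gm7160 (0.75), and Ighg2c like Gm9320 (0.85), Gm49188 (0.74) and Suclg2 (0.72). For Igha they were Rdh10 (0.78), which makes retinal from vitamin A, Etfb (0.77) and Sdhaf4 (0.74). Variable region genes made up 8 of the 50 genes most like Ighm, 2 of the 50 for Ighg2c, 1 for Ighg3 and 0 for the other 4 classes.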

How the data were processed

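RNA from whole spleen was sequenced in 20 libraries. The authors deposited 1 table of raw read counts per gene; per the submitters' processing notes, CASAVA, HISAT2 2.0.5 and featureCounts 1.5.0 were used with GRCm38 (mm10). The annotation release, strand setting and treatment of multi-mapping reads are not given in the sources used here. Gene positions and exon lengths of the 8 genes equal those of GENCODE M21, from which exons and sequence were read.

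From the counts, edgeR 4.0.16 in R 4.3.3 gave TMM factors and quasi-likelihood tests (18362 genes passed filterByExpr over the 4 diet by ID form groups, Benjamini-Hochberg adjustment over all of them, called under 0.05); DESeq2 1.42.0 was an alternative. Log2 CPM used a prior count of 2, levels per length CPM per kilobase of exon. Ratios used counts plus 0.5 and exact permutation tests (scipy 1.17.1). Fits were tested on simulated data.

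The class genes and gene lists were chosen with earlier results of these data known. Named genes are all 8 classes; of each list up to 4 with the highest mean CPM; and 3 most alike genes per class; Ell2 and Ms4a2 were named after their values were seen. Same-group libraries all differed beyond counting noise (chi-square per degree of freedom 5.97 to 99.0 over 47 pairs), so none was counted as a repeat. A gene of the switching machinery list is not reported here.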

Additional observations from a re-analysis of the deposited data

Results flagged for a closer look

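Each gene, the Ighd to Ighm ratio and the Igha to Ighm ratio were checked in each group of 4 to 10 libraries (30 in all). It was asked whether the highest or lowest library was set apart by Dixon's test. Chance sets apart about 1 in 20 groups, and 2 were, both for genes. Ighg3 had 32.6 CPM in control 7, against 3.70 to 13.9 CPM in the other 7 control plain libraries. Ighg2b had 169 CPM in gluten-free 7, against 53.1 to 61.0 CPM in the other 3 gluten-free plain libraries.

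The diet log2 fold change differed between the ID forms (S minus plain) for Ighm, by -1.23 (edgeR adjusted p = 0.00593), and for Ighg1, by -2.83 (edgeR adjusted p = 0.00806). For Ighm, 4 of 4 gluten-free plain libraries lay above every control and 4 of 5 gluten-free S libraries below every control of their form. The share of all genes that lay apart in this way was not counted.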

How the results depend on the processing

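Choices made after seeing the data were library totals without TMM factors and leaving out control 5 and control 8 together. In the fit of all libraries, the class genes called were 0, but 1 with DESeq2 (Igha) and 0 to 1 with 1 library left out; genes called were 0, but 1594 with DESeq2, 1 with no expression filter, 1 with no ID form term, 3 with the B cell mean as a covariate and 0 to 3718 with 1 library left out (3718 without control S6, 2923 without gluten-free S8). In the plain IDs, 4 class genes were called, against 0 with the red cell precursor mean as a covariate (413 genes in all against 7266), 3 with DESeq2 (Ighg1 lost), 5 without control 5 and control 8, with no expression filter or in the fit of all 4 groups, 6 without TMM factors, which moved the median of all genes upwards by 0.27, and 3 to 6 with 1 library left out. In the S IDs DESeq2 called 4 genes against 0. For S against plain in control spleens, class genes called were 0, but 1 with no expression filter and 0 to 1 with 1 library left out, and genes called were 396, but 910 with DESeq2 and 0 to 942 with 1 library left out. With 1 library left out, 2 to 4 class genes were called for the difference between ID forms and 2 to 5 for S against plain in gluten-free spleens.

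Estimates that turned round were, with the red cell precursor mean as a covariate, Ighm -0.43, Ighd -0.24, Ighg3 -0.14, Ighg1 -0.40 and Ighg2c -0.10 in the fit of all libraries and Ighd -0.72 in the plain IDs; with the B cell mean, Ighd -0.015; and without control 5 and control 8, Ighg1 -0.10. None of these was called in the fit first given above for its comparison, but Ighd in the plain IDs was called without control 5 and control 8. The cause was not tested. With 1 library left out, values ran from -0.46 to 0.39 for Ighg1 over all libraries, -0.10 to 0.62 for Ighd and -0.079 to 0.42 for Igha in the S IDs, -0.46 to 0.23 for Ighd between ID forms, -0.80 to 0.28 for Ighg2b in gluten-free S against plain, and -0.39 to 0.28 for Ighd and -0.0063 to 0.76 for Ighg2c in control S against plain. The Igha to Ighm difference ran from 0.52 to 0.81 (exact p = 0.0201 without gluten-free S6) and the Ighd to Ighm difference in S IDs from 0.57 to 1.08 (exact p = 0.0476 without control S6).

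A replicate block over the 4 IDs that both diets share (7, 8, S1, S6) gave 0 calls, Igha 0.94, Ighg3 -0.18 and Ighg1 -0.18. Deviations of same-numbered libraries correlated at -0.17, -0.20, 0.09 and 0.38. The labels do not tie the numbers, so whether same-numbered mice were related or handled together is not known.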
